A study of Drosophila melanogaster with 9 samples.

Results

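Iron handling genes were examined in the blood cells of *Drosophila melanogaster*, as the 10 genes of the deposited table whose symbol is *Fer1HCH*, *Fer2LCH*, *Fer3HCH*, *Tsf1*, *Tsf2*, *Tsf3*, *Mvl*, *Irp-1A*, *Irp-1B* or *mfrn*, out of 17490 genes in all. All 10 symbols were found. RNA had been sequenced from adult hemocytes (AD), flushed with PBS out of w1118 females labelled as aged 5 days. The methods give their age as a range that ends at 5 days. Larval peripheral hemocytes (PH) were bled from wandering w1118 larvae of the third instar. Of larval lymph glands (LG), the anterior lobes were dissected from w1118 larvae of the third instar. No treatment other than bleeding or dissection was listed, and each of the 3 samples of a group pooled many animals. All cells of a bleed or a lobe entered the RNA without sorting, so that fewer cells of a type and less RNA per cell cannot be told apart in these values.

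Insect cells take up iron through membrane transporters such as Malvolio (*Mvl*), the fly member of the NRAMP/DMT1 family, and transferrins carry it in body fluid. Surplus iron is stored in ferritin, which in flies passes through the secretory pathway and is built from heavy chains (*Fer1HCH*), which oxidize the iron, and light chains (*Fer2LCH*), which help to form the mineral core. Iron bound for iron-sulfur clusters and heme enters mitochondria through mitoferrin (*mfrn*), and the iron regulatory protein Irp-1A can bind a hairpin in the mRNA of *Fer1HCH* and of *SdhB* when iron is scarce. Hemocytes are known as a site of ferritin expression in larvae and adults.

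Expression is given as RPKM, which is reads per kilobase of exon scaled to a library size, as the authors deposited it. That size was not the read total alone. The values imply 9.03e+06 reads for LG replicate 3 and 3.85e+06 for PH replicate 3, where 6779942 and 4999411 were recovered. Scaling each sample by the median of its gene ratios (median-of-ratios) left 1773 genes higher and 1071 lower in AD against PH, as without it. The deposited values thus already carry a scaling of this kind. Pairs of groups were compared by limma, fitted to log2(RPKM + 1) of the genes that exceeded RPKM 1 in 3 or more of the 6 samples, and calls required an adjusted p (Benjamini-Hochberg) below 0.01 together with a fold change above 2. Adding 1 to every value shrinks the fold change of genes near RPKM 1. With annotated exon lengths, the RPKM values of these 10 genes can be turned back into reads, and a gene at 0 was given the RPKM of 3 reads as its upper limit, which covers counting error only.

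Between 2920664 and 3201825 reads were recovered per AD sample, 4999411 to 6534561 per PH sample and 2745573 to 6779942 per LG sample, of which 43.0 to 61.5% lay on rRNA genes. These totals are far below the number of mapped reads per sample that the study states, and the reason was not tested. Read limits and read ratios here rest on the recovered reads, divided by the library sizes that the values imply. Summed over 10 plasmatocyte markers, expression was 4223 to 4893 RPKM in AD, against 2265 to 3523 RPKM in PH and 2130 to 2580 RPKM in LG, and no marker was at 0 in any group. Between AD and PH the markers differed in direction, with 3 (*Hml*, *Col4a1* and *vkg*) called higher and 2 (*Pxn* and *He*) called lower in AD. Markers of other tissues were also present. A list of 5 adult female fat body genes, led by the yolk protein genes, summed to 7958 to 12376 RPKM in AD, against 33.5 to 37.0 RPKM in PH and 4.80 to 41.3 RPKM in LG, with *to* alone at 0 in both larval groups. A list of 6 larval fat body genes summed to 9.04 to 18.4 RPKM in AD, against 1430 to 1996 RPKM in PH and 108 to 175 RPKM in LG, none of them at 0 throughout a group. The methods describe the PH bleeds as free of fat body cells by eye. A list of 10 muscle genes summed to 955 to 993 RPKM in AD, against 27.9 to 53.0 RPKM in PH and 231 to 273 RPKM in LG, with 1 of the genes at 0 in LG. The 11 midgut markers summed to 0.199 to 6.94 RPKM in AD, against 4.84 to 41.9 RPKM in PH and 0.189 to 19.5 RPKM in LG. LG replicate 1 stood apart in 5 ring gland markers, which summed to 279 RPKM in it and to 2.39 and 0.937 RPKM in the other LG samples.

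Ferritin was the most expressed part of the set, and both of its subunit genes rose in AD. *Fer1HCH* (FBgn0015222) lies on chromosome 3R from 30385573 to 30388178 on the minus strand, and *Fer2LCH* (FBgn0015221) on the plus strand from 30387804 to 30390584, in the BDGP6.54 annotation (dm6 coordinates). Their 5′ ends overlap by 375 bases, of which 118 are exonic in both genes, and the counting is not stated to use strand, so reads from those bases cannot be assigned to one of them.

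*Fer2LCH* had 1738, 2101 and 1812 RPKM in AD, 276, 274 and 323 RPKM in PH and 171, 271 and 187 RPKM in LG. *Fer1HCH* had 861, 1024 and 868 RPKM in AD, 138, 131 and 120 RPKM in PH and 97.8, 150 and 105 RPKM in LG. For both genes every AD sample lay far above every larval sample. Ranked among the 17371 genes outside rRNA genes, *Fer2LCH* held places 6 to 7 in the AD samples, 165 to 178 in PH and 138 to 209 in LG. *Fer1HCH* held places 24 to 30 in AD, against 326 to 354 in PH and 249 to 328 in LG. Ranks within a sample do not depend on the scaling between samples.

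The mean of *Fer1HCH* in AD was 918 ± 91.9 RPKM, against 130 ± 9.12 in PH and 118 ± 28.5 in LG (SD, n = 3 each). By limma its log2 fold change was 2.81 relative to PH (SE 0.11, adjusted p = 4.3e-07) and 2.98 against LG (SE 0.18, adjusted p = 1.5e-05). *Fer2LCH* averaged 1884 ± 192 RPKM in AD, against 291 ± 27.5 in PH and 210 ± 53.7 in LG, with log2 fold changes of 2.69 relative to PH (SE 0.12, adjusted p = 7.4e-07) and 3.19 against LG (SE 0.19, adjusted p = 1.4e-05). The calls of both genes held in all 16 alternatives tried, where the lowest log2 fold change was 2.55. Among the 16, median-of-ratios scaling repeated the main fit and is no separate check. Together the subunits took 0.959 ± 0.0794% of the reads outside rRNA genes in AD, against 0.158 ± 0.00511% in PH and 0.144 ± 0.0286% in LG (mean ± SD, n = 3). Fat body also makes ferritin, and its marker lists above differed between the groups, the adult list being highest and the larval list lowest in AD. Each list holds genes of 1 stage, so the lists do not give the amount of fat body RNA in AD relative to the larval groups. The part of fat body RNA in the ferritin difference was not tested. Within AD the adult fat body markers summed to 10797, 12376 and 7958 RPKM in replicates 1 to 3.

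Between the larval groups the ferritin genes were not called. For *Fer1HCH* the log2 fold change of PH over LG was 0.17 (95% interval -0.26 to 0.59, adjusted p = 0.54 by limma), and it turned to -0.26 under quantile normalization and to -0.0434 when scaled to reads outside rRNA genes. For *Fer2LCH* it was 0.50 (95% interval 0.05 to 0.95, adjusted p = 0.087 by limma), and the lowest PH sample (274 RPKM) was just above the highest LG sample (271 RPKM).

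**Figure D1:**
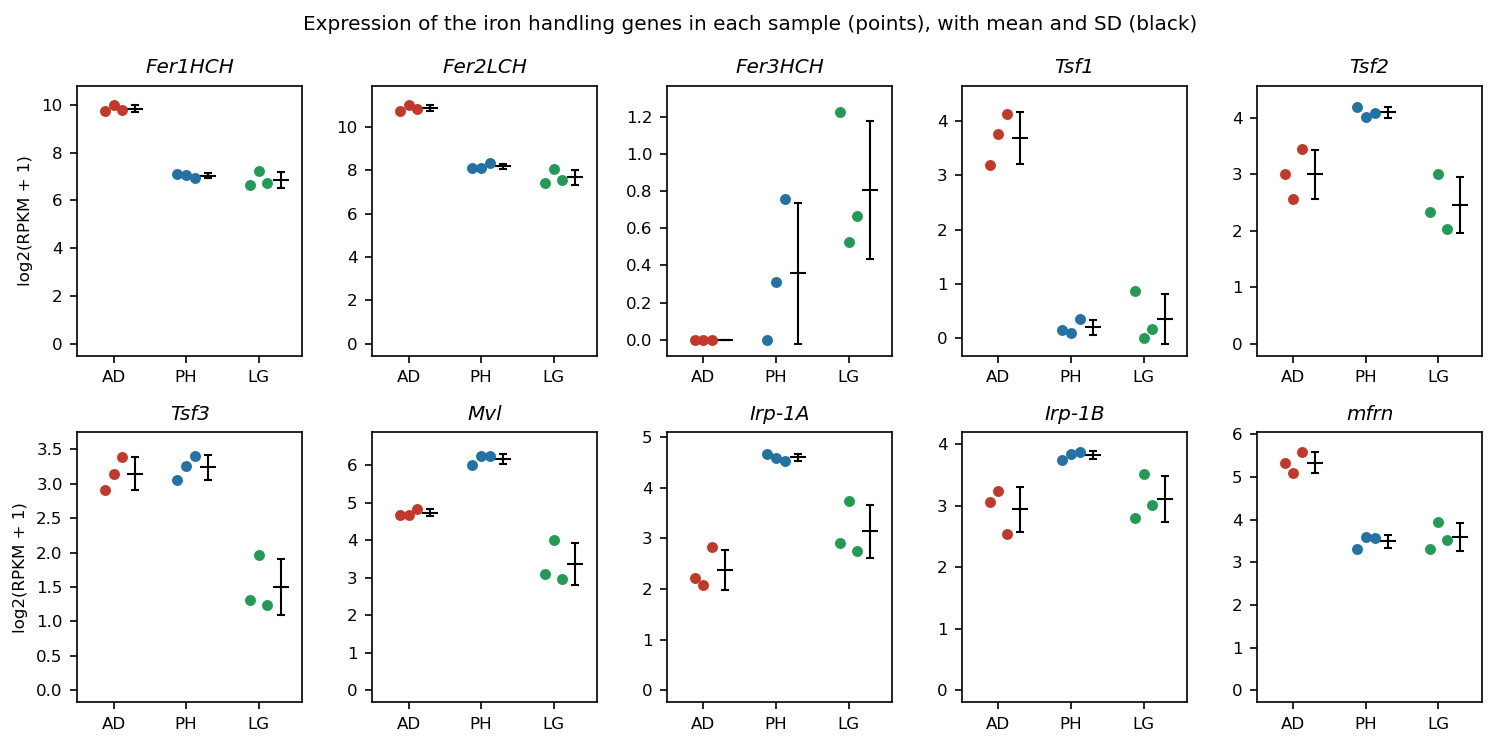
Expression of the 10 genes as log2(RPKM + 1) on the vertical axis, with one point per sample in AD, PH and LG and the mean and SD of the 3 samples in black beside them. The vertical scale differs between panels: *Fer2LCH* reached 2101 RPKM in AD, whereas *Fer3HCH* did not exceed 1.34 RPKM in any sample. The second LG point is the highest of its group for 8 of the 10 genes.

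The ratio of light to heavy chain RNA, taken within each sample from values per kilobase, compares the subunits without any scaling between samples. It was 2.02, 2.05 and 2.09 in AD, 2.0, 2.09 and 2.69 in PH and 1.75, 1.80 and 1.78 in LG. Per kilobase of annotated exon, *Fer2LCH* was thus above *Fer1HCH* in all 9 samples. The exons of all annotated transcripts are joined here, to 1648 bases for *Fer2LCH* and 2376 for *Fer1HCH*. Which transcripts were used was not examined, so the order of transcript numbers is not settled. The mean ratio was 2.05 ± 0.0354 in AD, against 2.26 ± 0.374 in PH and 1.78 ± 0.0270 in LG (SD, n = 3). Every LG sample was below every AD and every PH sample, and the exact two-sided permutation test gave p = 0.10 for AD against LG and for PH against LG (adjusted p = 0.15 over 6 tests of ratios), the smallest p that 3 against 3 samples allow. AD and PH overlapped (exact permutation p = 0.60). PH replicate 3, with the ratio of 2.69, also had the largest share of reads on rRNA genes (61.5%), and the part of this in the ratio was not tested.

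The third ferritin gene was barely detected. *Fer3HCH* (FBgn0030449, chromosome X from 13107382 to 13108194), which encodes a mitochondrial ferritin, lies inside *Chpf* on the same strand, without a shared exon. It had 0 reads in each AD sample, 0, 1 and 2 reads in PH and 6, 1 and 4 reads in LG. In AD, 0 reads allow up to 1.21 to 1.32 RPKM per sample. Pooled over the group, the 3-read limit in AD is 0.427 RPKM, and the LG level was 0.812 RPKM (11 reads), 1.90 times that limit. Counting error of the 11 LG reads is left out of this ratio, so 1.90 is not a lower bound. Too few reads were present for *Fer3HCH* to enter the test in any pair.

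Like ferritin, mitoferrin RNA was higher in AD than in either larval group. *mfrn* (FBgn0039561, chromosome 3R from 27942796 to 27948021) had 39.1, 33.2 and 47.1 RPKM in AD, 8.91, 11 and 10.9 RPKM in PH and 8.88, 14.5 and 10.5 RPKM in LG. The AD samples did not overlap with the larval ones, which overlapped with each other. The means were 39.8 ± 6.95 RPKM in AD, against 10.3 ± 1.19 in PH and 11.3 ± 2.86 in LG (SD, n = 3). The limma log2 fold change was 1.85 relative to PH (SE 0.17, adjusted p = 2.7e-05) and 1.74 against LG (SE 0.22, adjusted p = 0.00043), and it was called in every alternative. Between PH and LG it was -0.10 (95% interval -0.61 to 0.40, adjusted p = 0.75 by limma). The summed muscle markers given above were also higher in AD than in PH and LG. Of the 10 genes, 9 were called higher and 0 lower against PH, where 23.0% of all genes were higher and 13.9% lower. Against LG, 6 were called higher and 1 lower, where 20.0% of all genes were higher and 10.4% lower. The part of muscle RNA in the *mfrn* difference was not tested.

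The 3 transferrin genes had 3 different patterns. *Tsf1* (FBgn0022355, chromosome X from 18387084 to 18390344) encodes the transferrin of the hemolymph, which moves iron between the gut and the fat body. It was found almost only in AD, at 8.12, 12.5 and 16.6 RPKM (70, 108 and 157 reads). In PH it had 2, 1 and 3 reads (0.110, 0.0637 and 0.273 RPKM), and in LG 14, 0 and 3 reads (0.822, 0 and 0.116 RPKM). Pooled over the samples of a group, the rate was 93.8 times higher in AD than in PH (exact 95% interval 42.6 to 257) and 38.0 times higher than in LG (23.4 to 66.0). LG replicate 1 held 14 of the 17 LG reads, and without it the ratio to LG was 144 (48.9 to 702), an increase of more than 1.5 times. These intervals cover counting error only. By limma the log2 fold change was 3.50 relative to PH (SE 0.28, adjusted p = 1.3e-05) and 3.35 against LG (SE 0.34, adjusted p = 0.00016), but *Tsf1* passed the filter on low values through AD alone, so a difference was built into its test.

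*Tsf1* is expressed in fat body, and both fat body lists differed between the groups. LG replicate 1, with most of the LG reads of *Tsf1*, had 41.3 RPKM in the adult female fat body list, against 4.80 and 5.86 RPKM in LG replicates 2 and 3, besides the ring gland markers described above. The larval fat body list was far higher in PH (1430 to 1996 RPKM) than in LG (108 to 175 RPKM), while *Tsf1* had 6 reads in PH and 17 in LG. Within AD, *Tsf1* was highest in replicate 3, where the adult fat body list was lowest (7958 RPKM). The part of fat body RNA in the *Tsf1* difference was not tested.

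*Tsf2* (FBgn0036299, chromosome 3L from 12530436 to 12533724), a membrane-bound transferrin needed for septate junctions of epithelia, was highest in PH. It had 7.0, 4.93 and 9.85 RPKM in AD, 17.3, 15.1 and 15.9 RPKM in PH and 4.01, 6.98 and 3.11 RPKM in LG. All PH samples were above all others, while AD and LG overlapped. The limma log2 fold change was -1.09 in AD against PH (SE 0.23, adjusted p = 0.0033) and 1.64 in PH against LG (SE 0.26, adjusted p = 0.0029). Between AD and LG it was 0.55 (95% interval -0.22 to 1.32, adjusted p = 0.21 by limma). The call between AD and PH was lost with a pseudocount of 5 (log2 fold change -0.80) and without AD replicate 2 (-0.88), and without PH replicates 1, 2 or 3 (limma adjusted p = 0.0126, 0.0101 and 0.0111). The call between PH and LG was lost without any single PH replicate or LG replicate 3 (limma adjusted p = 0.011 to 0.015).

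*Tsf3* (FBgn0034094, chromosome 2R from 16226501 to 16229869) was lowest in LG. It had 6.55, 7.79 and 9.54 RPKM in AD, 7.28, 8.56 and 9.62 RPKM in PH and 1.48, 2.92 and 1.35 RPKM in LG. AD and PH overlapped throughout, and every LG sample was below both. The limma log2 fold change was 1.65 in AD against LG (SE 0.28, adjusted p = 0.0020) and 1.73 in PH against LG (SE 0.26, adjusted p = 0.0024). Between AD and PH it was -0.09 (95% interval -0.54 to 0.36, adjusted p = 0.72 by limma). With a pseudocount of 5 both fold changes fell short of 2 (0.91 and 0.97 on the log2 scale), and by limma's adjusted p the call against LG was lost for AD without AD replicates 2 or 3 (0.0101 and 0.0118) and for PH without PH replicates 2 or 3 or LG replicate 3 (0.0114 to 0.0135). The gene lies within *CG15706* on the opposite strand and shares 169 exonic bases with it. *CG15706* had 3.66 ± 0.113 RPKM in AD, against 18.5 ± 1.62 in PH and 6.05 ± 1.76 in LG, a different order, and reads of the shared bases cannot be assigned to one of the genes.

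The iron and manganese transporter gene *Mvl* (FBgn0011672, chromosome 3R from 21051383 to 21060800) separated all groups. It had 24.8, 24.7 and 27.6 RPKM in AD, 63.8, 75.5 and 75.3 RPKM in PH and 7.57, 15.1 and 6.88 RPKM in LG. No sample of one group reached the range of another, with PH highest and LG lowest. The means were 25.7 ± 1.67 RPKM in AD, against 71.5 ± 6.68 in PH and 9.86 ± 4.58 in LG (SD, n = 3). In AD *Mvl* fell by 1.44 on the log2 scale against PH (SE 0.12, limma adjusted p = 1.8e-05), and in PH it was 2.81 higher than in LG (SE 0.27, limma adjusted p = 0.00038). Both calls held in every alternative. Against LG it was 1.37 higher in AD (SE 0.28, limma adjusted p = 0.0046). That call ended in 8 of 16 alternatives, with the fold change between 1.05 and 1.70 on the log2 scale in all 16. It was lost without AD replicates 1, 2 or 3 and without LG replicates 1 or 3 (limma adjusted p = 0.0143 to 0.0205), without a filter on low values (0.0105), and under quantile normalization or scaling to reads outside rRNA genes (0.0117 each).

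The gene of the RNA-binding regulator *Irp-1A* (FBgn0024958, chromosome 3R from 22721320 to 22724587) was likewise highest in PH. It had 3.68, 3.21 and 6.08 RPKM in AD, 24.4, 23.1 and 22.1 RPKM in PH and 6.51, 12.4 and 5.76 RPKM in LG. The PH samples were close to each other and above all others, and AD and LG overlapped. *Irp-1A* fell in AD by 2.22 on the log2 scale against PH (SE 0.22, limma adjusted p = 4.3e-05), a call that held in every alternative. It was 1.46 higher in PH than in LG (SE 0.27, limma adjusted p = 0.0049), but this call was lost without a filter (0.0132), without any single PH replicate and without LG replicates 1 or 3 (limma adjusted p = 0.0150 to 0.0227). Between AD and LG the log2 fold change was -0.76 (95% interval -1.53 to 0.01, adjusted p = 0.093 by limma). An antisense RNA gene that shares 169 exonic bases with *Irp-1A*, *asRNA:CR45648*, was listed at 0 in all samples.

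*Irp-1B* (FBgn0024957, chromosome 3R from 10408618 to 10412869) encodes the close relative of Irp-1A, which in *Drosophila* is not known to bind the iron-responsive hairpin. It had 7.31, 8.44 and 4.79 RPKM in AD, 12.4, 13.4 and 13.6 RPKM in PH and 5.95, 10.5 and 7.10 RPKM in LG. The PH samples were again above all others, but no pair was called. The limma log2 fold change was -0.88 in AD against PH (SE 0.21, adjusted p = 0.0066, under the fold change limit), 0.71 in PH against LG (SE 0.22, adjusted p = 0.043) and -0.17 in AD against LG (SE 0.28, adjusted p = 0.65). Under quantile normalization (-1.07) and without AD replicate 2 (-1.03) the gene was called lower in AD than in PH.

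Within samples, *Irp-1A* RNA was 0.503, 0.381 and 1.27 times that of *Irp-1B* in AD, 1.96, 1.73 and 1.62 times in PH and 1.09, 1.18 and 0.812 times in LG. The PH ratios were above all others, with means of 0.718 ± 0.481 in AD, against 1.77 ± 0.176 in PH and 1.03 ± 0.193 in LG (SD, n = 3). By the exact permutation test p was 0.10 for AD against PH and for PH against LG, the smallest possible, and 0.40 for AD against LG (adjusted p = 0.15, 0.15 and 0.48). AD replicate 3 stood apart from the other AD samples, with 58 reads of *Irp-1A* and 46 of *Irp-1B*, against 32 and 64 in replicate 1 and 28 and 74 in replicate 2. Without it the AD mean was 0.442.

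**Figure D2:**
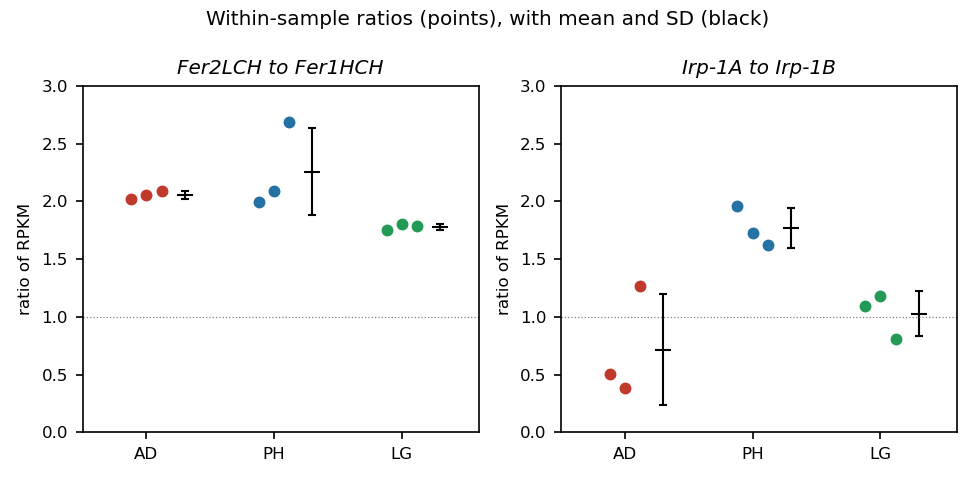
Ratio of RPKM values within each sample, for *Fer2LCH* to *Fer1HCH* on the left and *Irp-1A* to *Irp-1B* on the right, with one point per sample and the mean and SD in black. The light chain exceeded the heavy chain in all 9 samples, and the *Irp-1A* to *Irp-1B* ratio was above 1.6 in PH only, where its lowest value was 1.62.

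*Tsf1*, whose call in AD the filter fixed, is left out of the counts that follow, and *Fer3HCH* was not tested. Among the other 8 genes, 3 (*Fer1HCH*, *Fer2LCH* and *mfrn*) were called higher and 3 (*Tsf2*, *Mvl* and *Irp-1A*) lower in AD than in PH. Of all 7692 genes tested in this pair, 23.0% were called higher and 13.9% lower in AD. At an unadjusted p below 0.05 limma gave 3 higher and 4 lower of the 8 genes, where 34.2% of all genes were higher and 28.9% lower. Against LG, 5 of the 8 genes (*Fer1HCH*, *Fer2LCH*, *Tsf3*, *Mvl* and *mfrn*) were called higher in AD and none lower, where 20.0% of 7748 genes were higher and 10.4% lower. At an unadjusted p below 0.05 limma gave 5 higher and 0 lower of the 8 genes, where 31.1% of all genes were higher and 24.4% lower. In PH, 4 genes (*Tsf2*, *Tsf3*, *Mvl* and *Irp-1A*) were higher than in LG and none lower, where 7.63% of 7088 genes were higher and 6.57% lower. At an unadjusted p below 0.05 limma gave 6 higher and 0 lower of the 8 genes in this pair, where 22.3% of all genes were higher and 20.1% lower. The comparisons of AD share the AD samples and are not independent of each other. Quantile normalization moved the split of all called genes to 1457 higher and 1437 lower in AD against PH (1773 and 1071 as deposited) and to 1252 and 1180 against LG (1553 and 805 as deposited). Scaling to reads outside rRNA genes moved it to 1214 and 1324 in AD against LG, and to 384 and 622 in PH against LG (541 and 466 as deposited).

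**Figure D3:**
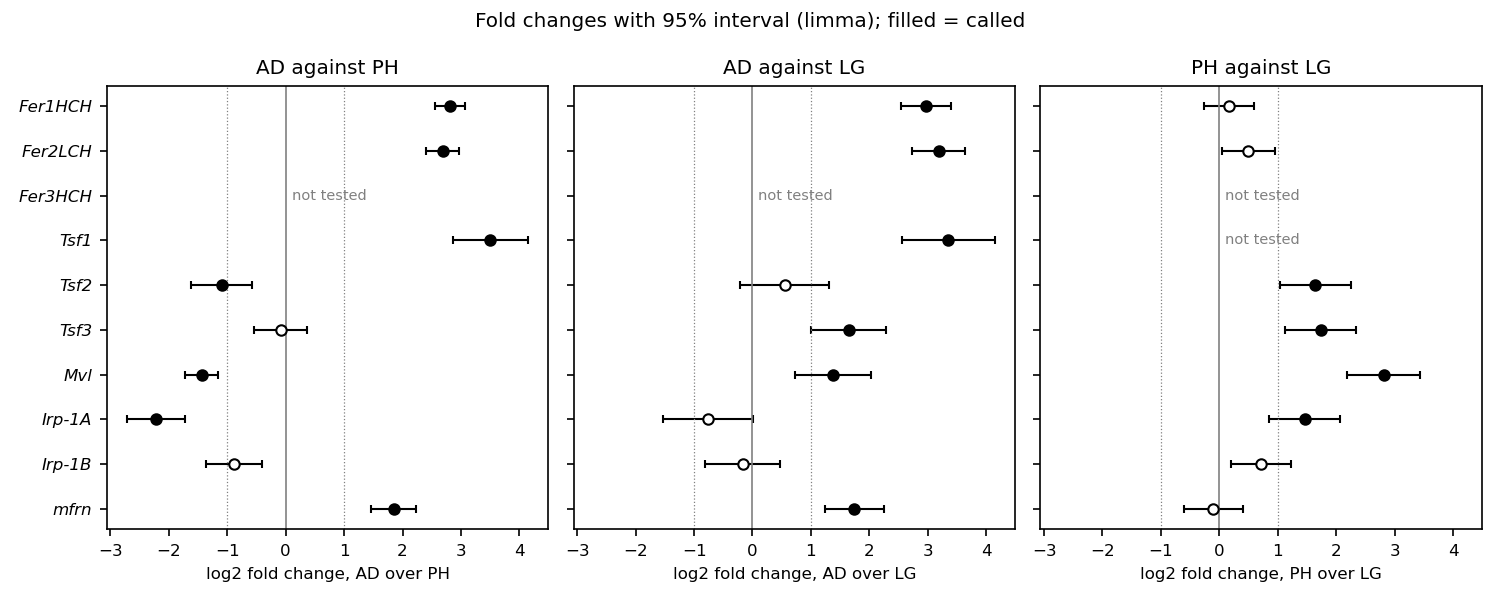
Log2 fold change of each gene on the horizontal axis for AD over PH, AD over LG and PH over LG, with the 95% interval from limma. Filled points were called and open points were not, and dotted lines mark a fold change of 2. The ferritin genes and *mfrn* lie to the right in both AD panels, while *Mvl* lies at -1.44 against PH and at 1.37 against LG.

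In order of mean level per kilobase, AD had *Fer2LCH* (1884 RPKM), *Fer1HCH* (918), *mfrn* (39.8), *Mvl* (25.7), *Tsf1* (12.4), *Tsf3* (7.96), *Tsf2* (7.26), *Irp-1B* (6.84) and *Irp-1A* (4.32). From *Tsf1* downwards each gene overlapped with its neighbours. In PH the order was *Fer2LCH* (291 RPKM), *Fer1HCH* (130), *Mvl* (71.5), *Irp-1A* (23.2), *Tsf2* (16.1), *Irp-1B* (13.1), *mfrn* (10.3) and *Tsf3* (8.49), and the last pair alone overlapped. In LG it was *Fer2LCH* (210 RPKM), *Fer1HCH* (118), *mfrn* (11.3), *Mvl* (9.86), *Irp-1A* (8.21), *Irp-1B* (7.84), *Tsf2* (4.70) and *Tsf3* (1.92), and from *mfrn* to *Tsf2* neighbours overlapped. The coefficient of variation of these 8 genes was 6.49 to 35.6% in AD, against 4.85 to 13.8% in PH and 24.3 to 46.5% in LG, and it was highest in LG for each of them, although the ranges of AD and LG overlapped. LG replicate 2, the library with the fewest reads, was the highest LG sample for all 8 genes above RPKM 1 in every LG sample, as it was for 39.7% of the 6220 genes that passed the same limit.

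Genes whose pattern over the 9 samples was most like that of a member are given by Pearson's r of log2(RPKM + 1) over 8064 other genes, as a description without a test, since the points share the same libraries and the 3 groups set most of the correlation. For *Fer1HCH* they were *Sema-2a* (r = 0.997), *DOR* (0.997), *ATP7* (0.996), *Npl4* (0.996) and *EDTP* (0.996), of which *ATP7* encodes a copper transporter. *Fer2LCH* came 17th for *Fer1HCH*, with r = 0.992. For *Fer2LCH* the closest were *CG5613* (0.995), *CG6415* (0.994), *Dscam1* (0.994), *Fer1HCH* (0.992) and *ND-PDSW* (0.992), the last a subunit of respiratory complex I. For *Mvl* they were *CG8602* (0.994), *Ptpmeg2* (0.993), *Past1* (0.993), *CG2444* (0.989) and *pain* (0.988), and *Tsf2* came 87th (0.944). For *Irp-1A* they were *MED24* (0.988), *cl* (0.988), *Hmu* (0.987), *Pax* (0.984) and *CG42674* (0.980).

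Other genes of iron use were followed in 7 lists of 61 genes, of which 60 were matched. In AD against PH, 18 of 50 tested genes were higher and 3 lower, in AD against LG 13 of 51 were higher and 1 lower, and in PH against LG 3 of 50 were higher and none lower. At an unadjusted p below 0.05 limma gave 14 higher and 4 lower of these 50 genes in PH against LG. The 3 called genes were *MtnA*, *Cat* and *CG1275*, the last named after its values were seen, at 20.3 RPKM in AD, against 32.2 in PH and 10.5 in LG. AD exceeded both larval groups in 12 of these genes by these calls. Among all genes, 23.0% were called higher in AD than in PH and 20.0% higher than in LG. The share of all genes higher in both was not counted, so the 12 cannot be set against it. The other shares of called genes among all genes are those given above.

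Mitochondrial iron-sulfur cluster assembly had 7 of 15 tested genes higher in AD than in PH and 4 of 15 higher than in LG, with none lower, and at an unadjusted p below 0.05 limma gave 9 higher and 1 lower against PH and 8 higher and 1 lower against LG. Its median log2 fold change was 0.92 relative to PH and 0.69 against LG, where the median of all genes was 0.05 and 0.07. *IscU*, the scaffold on which clusters are built, had 282 ± 17.2 RPKM in AD, against 26.6 ± 5.33 in PH and 28.7 ± 6.10 in LG, and *MagR*, an iron-sulfur carrier, had 34.6 ± 4.73 RPKM in AD, against 2.78 ± 0.645 in PH and 4.93 ± 2.03 in LG (SD, n = 3). Both were called in both comparisons, as was *CG13623*, at 24.5 ± 4.94 RPKM in AD, against 6.65 ± 2.30 in PH and 4.89 ± 0.526 in LG. *CG33502* was called against PH alone, with a log2 fold change of 1.75 relative to PH and 0.89 against LG, and it may share reads with its close copies *CG32500* and *CG32857*.

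The cytosolic branch of cluster assembly had 1 of 9 genes higher in AD than in PH and none against LG, where at an unadjusted p below 0.05 limma gave 2 higher and 1 lower. The gene was *galla-1*, at 14.4 ± 3.82 RPKM in AD and 5.35 ± 1.69 in PH (SD, n = 3). The median log2 fold change of the list was -0.37 against PH and 0.11 against LG.

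Heme synthesis and breakdown had called genes in both directions. *Alas*, the first enzyme of heme synthesis, had 39.7 ± 5.81 RPKM in AD, against 12.8 ± 0.398 in PH and 15.3 ± 5.88 in LG and was higher in AD in both comparisons. *Coprox*, a later enzyme of the path, fell in AD against PH and LG, with 5.26 ± 3.87 RPKM in AD, against 29.8 ± 2.37 in PH and 20.1 ± 6.22 in LG. *Ppox*, which follows it, fell against PH by 1.44 on the log2 scale, and its log2 fold change against LG was -0.76 (limma adjusted p = 0.073). The 6 other genes of the list were not called against PH.

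Both detected genes of the aconitase and succinate dehydrogenase B list were higher in AD. The mitochondrial aconitase gene *Acon* had 238 ± 10.7 RPKM in AD, against 37.2 ± 4.86 in PH and 30.4 ± 6.87 in LG, and *SdhB* had 63.5 ± 1.64 RPKM in AD, against 9.99 ± 3.73 in PH and 10.8 ± 3.23 in LG (SD, n = 3). *Zip99C*, whose product brings iron into the secretory pathway, where fly ferritin is loaded, had 97.4 ± 12.6 RPKM in AD, against 14.7 ± 1.58 in PH and 8.47 ± 3.98 in LG. Its log2 fold change was 2.65 relative to PH (SE 0.14, limma adjusted p = 1.5e-06) and 3.45 against LG (SE 0.28, limma adjusted p = 5.0e-05). It was the only one of 3 tested genes of iron uptake, export and release that was called in AD.

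Of the metal-responsive genes, 3 were higher in AD in both comparisons. The metal-responsive transcription factor gene *MTF-1* had 13.2 ± 1.85 RPKM in AD, against 5.90 ± 0.0727 in PH and 5.87 ± 0.893 in LG. The metallothionein gene *MtnA* had 247 ± 42.3 RPKM in AD, against 121 ± 3.92 in PH and 46.2 ± 22.1 in LG, and *MtnB* had 15.5 ± 1.84 RPKM in AD, against 1.96 ± 0.631 in PH and 2.78 ± 1.42 in LG (SD, n = 3).

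Of the enzymes that remove peroxide and superoxide, 3 of 8 tested were higher and 1 lower in AD than in PH, and 2 were higher than in LG. *Cat*, encoding catalase, an enzyme with heme, had the same order as *Mvl*, with 54.5 ± 5.01 RPKM in AD, against 187 ± 22.9 in PH and 21.0 ± 3.06 in LG, and it was called lower in AD than in PH, higher in AD than in LG and higher in PH than in LG. *PHGPx*, a glutathione peroxidase gene, was higher in AD in both comparisons, with 175 ± 20.0 RPKM in AD, against 84.5 ± 13.4 in PH and 56.8 ± 19.1 in LG. *Jafrac1*, a peroxiredoxin gene, had 123 ± 14.0 RPKM in AD, against 10.2 ± 1.83 in PH and 41.9 ± 29.2 in LG and was called against PH alone. *Sod2*, the mitochondrial superoxide dismutase gene, had 39.0 ± 2.91 RPKM in AD, against 18.3 ± 3.54 in PH and 19.8 ± 7.61 in LG and was likewise called against PH alone.

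**Figure D4:**
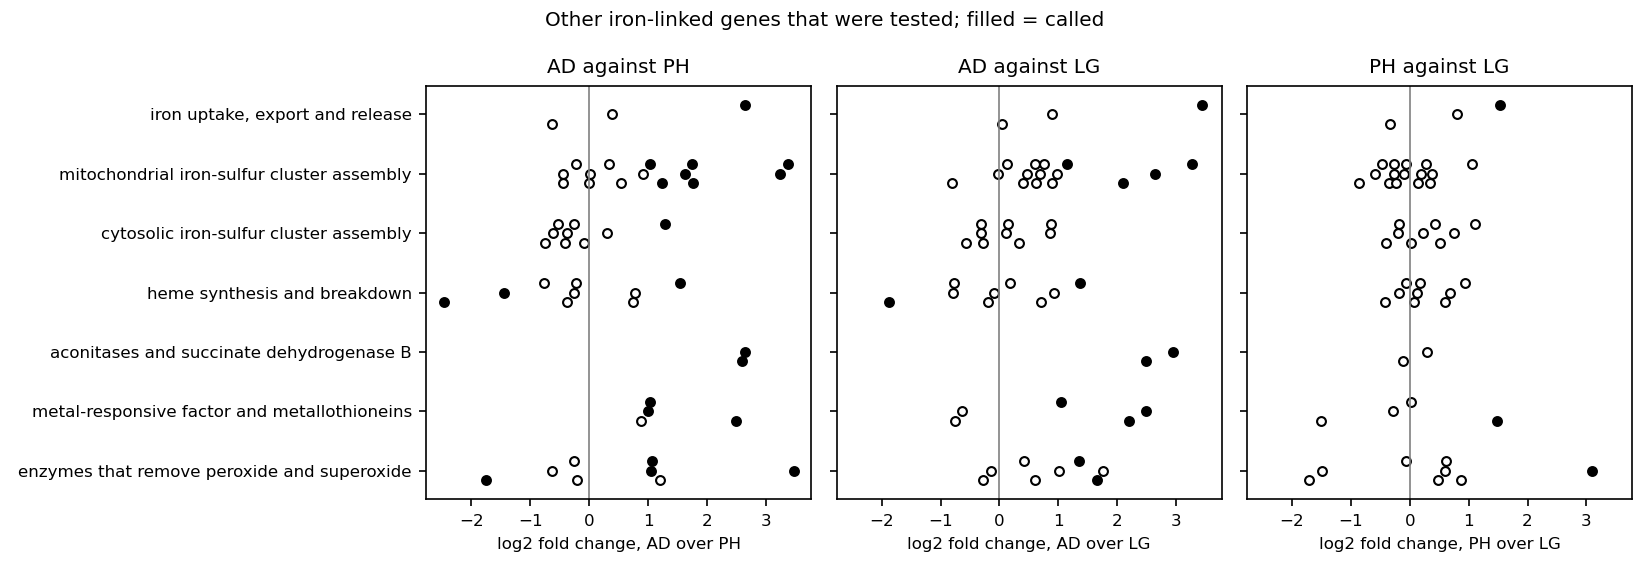
Log2 fold changes of the tested genes of 7 lists of iron use, one list per row and one point per gene, for AD over PH, AD over LG and PH over LG. Filled points were called and open points were not. Called points lie mostly to the right in the AD panels, 18 of 21 against PH and 13 of 14 against LG, and only 3 genes were called between PH and LG. Of all called genes, 1773 of 2844 were also higher in AD than in PH and 1553 of 2358 higher than in LG. That split moved under other scalings, for which the lists were not recounted.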

How the data were processed

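The samples were 3 AD, 3 PH and 3 LG libraries, grouped by the deposited descriptions. According to the methods and processing notes, the authors used Trimmomatic (0.32) for trimming, HISAT2 (2.1.0) for alignment to dm6 and HTSeq for counting, and deposited RPKM values calculated with Cufflinks (2.2.1). BDGP5 and TopHat are also listed in those notes. The methods and the deposited descriptions differ in the RNA kit and the sequencing device. All 9 columns of RPKM were used, and no sequences were at hand to print.

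Exon lengths of BDGP6.54 matched 17216 genes by identifier and 85 by symbol, and with them 97.8 to 98.0% of the values above 0 became whole reads within 0.02. These reads served for limits and ratios of low genes only. Fits used limma 3.58.1 (trend) in R 4.3.3 on log2(RPKM + 1), on the 6 samples of each pair, and were checked on simulated data. Permutation tests, ratios and plots were made with Python 3.11.15, scipy 1.17.1 and matplotlib 3.10.9. The p-values measure the spread between biological triplicates of pooled animals.

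The members and lists were chosen with earlier results of these data known. Named genes are all members, up to 4 called genes with the largest change of each list, and the 5 genes most like *Fer1HCH*, *Fer2LCH*, *Mvl* and *Irp-1A*.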

Additional observations from a re-analysis of the deposited data

Results flagged for a closer look

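For 4 of 8 tested genes the difference between adult and larval cells depended on the larval compartment by the calls made. The AD samples are common to both differences, so that the test of this is the comparison of PH with LG. In that pair 14.2% of all 7088 tested genes were called in either direction. The call of *Mvl* held in all 16 alternatives. Those of *Tsf2* and *Tsf3* were each lost in 4 of the 16, and that of *Irp-1A* in 6. PH minus LG was 2.81 on the log2 scale for *Mvl*, where AD minus PH was -1.44 and AD minus LG was 1.37. For *Tsf3* it was 1.73, with AD minus PH at -0.09 and AD minus LG at 1.65. For *Tsf2* it was 1.64, with AD minus PH at -1.09 and AD minus LG at 0.55. For *Irp-1A* it was 1.46, with AD minus PH at -2.22 and AD minus LG at -0.76.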

How the results depend on the processing

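The calls of *Fer1HCH*, *Fer2LCH* and *mfrn* in both AD comparisons, of *Mvl* and *Irp-1A* between AD and PH and of *Mvl* between PH and LG were the same in all 16 alternatives. Median-of-ratios scaling, counted among the 16, repeated the main fit because the deposited values already carry it, so its outcome was fixed. The direction turned only in comparisons that were not called. These were *Tsf3* between AD and PH (-0.21 to 0.0284 with 1 replicate left out, above 0 without AD replicate 1), *Irp-1B* between AD and LG (-0.33 to 0.0349, above 0 without AD replicate 3 or LG replicate 2), *mfrn* between PH and LG (-0.25 to 0.0746, above 0 without LG replicate 2) and *Fer1HCH* between PH and LG (-0.26 under quantile normalization and -0.0434 when scaled to reads outside rRNA genes). With a single replicate left out, 3 to 6 of the iron handling genes, *Tsf1* counted, were called higher in AD than in LG (6 with all samples), 1 to 4 higher in PH than in LG (4 with all samples), and 3 to 4 higher and 2 to 3 lower in AD than in PH. Of all genes, such fits called 1050 to 1658 higher in AD than in PH (1773 with all samples), 758 to 1573 higher and 415 to 688 lower in AD than in LG (1553 and 805), and 217 to 670 higher and 166 to 502 lower in PH than in LG (541 and 466). Without an AD replicate, genes seen in AD alone cannot pass the filter, *Tsf1* among them. A pseudocount of 5 gave 1073 higher and 638 lower genes in AD against PH (1071 lower at a pseudocount of 1), 439 lower in AD against LG and 252 lower in PH against LG. In PH against LG, 296 genes were lower without a filter and 761 with array weights. Scaling to reads outside rRNA genes gave 1595 higher and 1277 lower genes in AD against PH, 1214 and 1324 in AD against LG and 384 and 622 in PH against LG, and it moved the median of all genes by -0.12, -0.29 and -0.17 on the log2 scale, where quantile normalization moved it by -0.24, -0.24 and -0.01. Counted in reads in place of RPKM, the ratio of *Fer2LCH* to *Fer1HCH* averaged 1.42 in AD, against 1.57 in PH and 1.23 in LG, since the annotated exons differ in length. The causes of the other changes were not tested.

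No sign of a pairing by replicate number was seen. Deviations of same-numbered samples from their group means correlated between -0.11 and 0.05, and those of differently numbered samples between -0.13 and 0.11. With 3 samples per group these correlations cannot exclude a pairing. With the replicate number as a block, 1763 genes were higher and 1070 lower in AD than in PH, 1376 and 655 in AD than in LG and 448 and 354 in PH than in LG, and the block changed no call of an iron handling gene. Depth limits *Fer3HCH* and the larval *Tsf1*, with 17 reads or fewer per group.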

Other observations

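Summed RPKM of further marker lists also differed between the groups. The crystal cell markers (*lz*, *PPO1* and *PPO2*) summed to 1535 to 1647 RPKM in AD, with 1506 to 2185 in PH and 413 to 1021 in LG. The lamellocyte markers stayed low, at 4.83 to 8.72 RPKM in AD, with 1.87 to 6.53 in PH and 0.846 to 1.43 in LG. The list of prohemocyte and posterior signaling center genes, led by *Tep4*, summed to 61.7 to 73.7 RPKM in AD, with 74.0 to 94.8 in PH and 713 to 861 in LG. *Tep4* made up most of these sums. In AD against PH, 3 of the 5 genes (*dome*, *Antp* and *kn*) were called higher and none lower, where 23.0% of all genes were higher and 13.9% lower. *Antp* and *kn* passed the filter on low values through AD alone, so a difference was built into their tests. The same holds for *shg*, which was not called. The median log2 fold change of the list, 1.15, includes these genes. Heart and pericardial cell markers did not exceed 0.464 RPKM in AD and 0.863 RPKM in PH, and summed to 13.9 to 26.3 RPKM in LG. Ovary markers summed to 1.43 to 11 RPKM in AD and to 0.509 RPKM or less in either larval group, and Malpighian tubule markers to 6.14 RPKM or less in any sample. Their part in the values of the iron handling genes was not tested.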
